A study of Rattus norvegicus with 6 samples.

Results

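Matrix metalloproteinases (MMPs), the ADAM and ADAMTS proteases and the tissue inhibitors of metalloproteinases (TIMPs) were followed in rat heart muscle cells treated with hCT1, human recombinant cardiotrophin 1. Members were taken by symbol, as every probe set paired with exactly 1 gene symbol that begins with Mmp, Timp or Adam and a digit, or with Adamts. These were 58 of the 15310 probe sets with 1 symbol and stood for 57 of 14506 genes: 21 MMPs, 18 ADAMs, 11 ADAMTS proteases, 3 ADAMTS-like proteins and 4 TIMPs. Each gene was represented by the probe set with the highest mean over the 6 samples. A second probe set existed for Adamts3 alone, and both its probe sets missed the threshold. Adam10 is not analysed here.

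Gene expression was measured in primary ventricular cardiomyocytes of Sprague-Dawley rat pups aged 2 days. Cells were pre-plated to deplete fibroblasts, grown on collagen-coated dishes and kept without serum. They then received either hCT1 (0.5 nM) or the serum-free control medium for 24 h, with 3 samples per group and 1 Affymetrix whole-transcript array per sample. The purpose of the arrays was to profile the transcripts that respond to hCT1 in heart muscle cells. The labels give 1 strain for both groups and name no genetic change in either. One label names a hypertrophic agonist in the growth medium of all 6 samples. The methods instead count hCT1 among the hypertrophic agonists and describe the serum-free control medium as non-hypertrophic. Only if the label held for the controls would the comparison be against that agonist. The RNA was isolated in triplicate, and separate cultures are not stated. What the p-values measure is therefore the spread between arrays, and this spread may be only technical.

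MMPs and ADAMTS proteases are zinc enzymes that cut collagens, proteoglycans and other proteins of the extracellular matrix, while ADAMs cut membrane proteins and release their outer parts, which is called shedding. Most are made as inactive proenzymes and are opened by other proteases. TIMPs bind and block the active enzymes, and in the heart the balance between both sides sets how fast matrix is turned over. Cardiotrophin 1 is a cytokine that signals through the gp130 receptor chain and the transcription factor STAT3.

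Values are log2 signals as deposited, and a difference is the hCT1 mean minus the control mean. A member was called higher or lower at a Benjamini-Hochberg adjusted p under 0.05 in limma, adjusted over all 15310 probe sets. Signals of dim probe sets understate true folds, so a member with a mean signal at or below the 40th percentile of the probe sets is called dim. With hCT1, 4 of the 57 members rose (Timp1, Timp3, Adam9 and Mmp16) and 8 fell (Mmp15, Mmp28, Mmp17, Timp2, Adamts9, Adamts12, Adamts14 and Adamts19). The members' shares were 7.02% higher and 14.0% lower, against 5.09% and 9.58% of all genes, which is near the background in each direction. Without control replicate 3 the counts were 7 higher and 11 lower, and for all genes 846 higher and 1696 lower. The count of members that fell was 3, 2, 4, 3 and 5 without control replicates 1 and 2 and hCT1 replicates 1, 2 and 3. In the same order 744, 759, 832, 758 and 922 of all genes fell, in place of 1390. The split also moved with the scaling. In 1 alternative each array was centred on its median, taken over the 15310 probe sets with 1 symbol. Over all 29215 probe sets the array medians were 5.53 to 5.58 in control samples and 5.50 to 5.54 with hCT1. With centring on the 15310 probe sets 10 members were higher and 3 lower. All genes then split into 2230 higher and 713 lower in place of 739 and 1390. After another round of quantile normalization these were 5 and 6 members and 894 and 1009 genes. The groups did not overlap, with hCT1 above control, for 8 members, and with hCT1 below control for 13. These shares were 14.0% and 22.8%, against 14.2% and 20.0% of all genes. The median difference was -0.02 over the members and 0.00 over all genes. All 12 members that passed were brighter than the dim limit, and none of the 30 dim members passed.

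**Figure D1:**
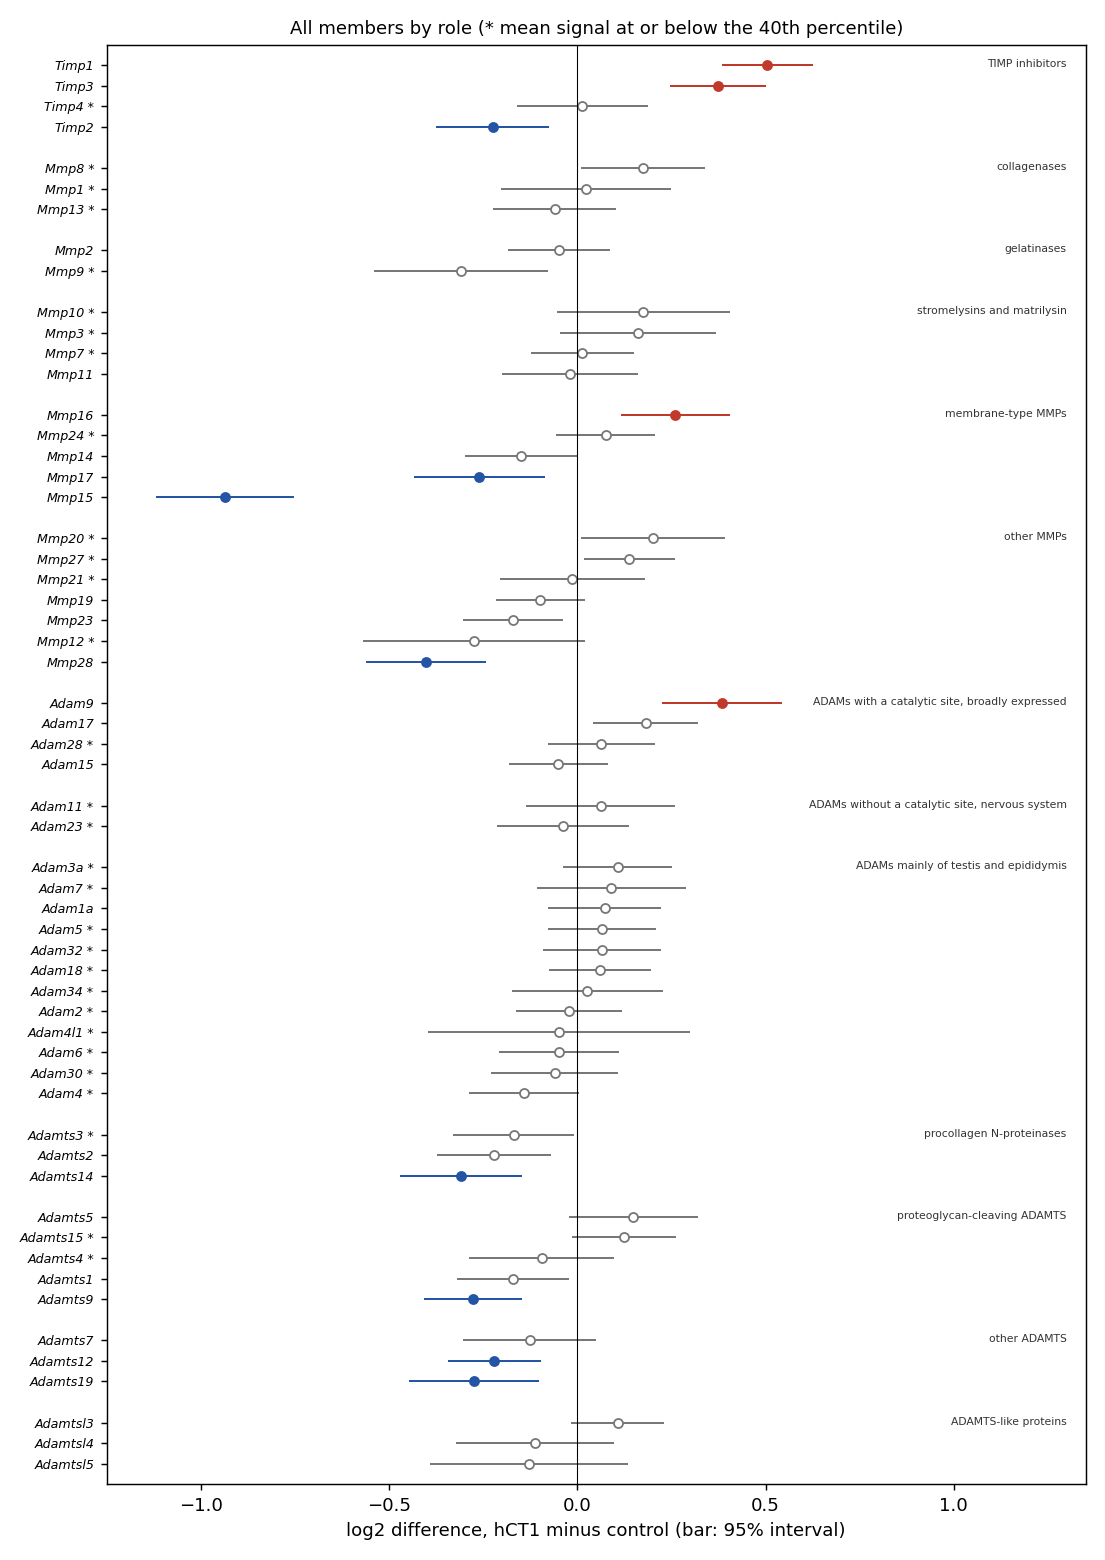
Log2 difference (hCT1 minus control, horizontal axis) of all 57 members, grouped by role, with points for the estimate and bars for its 95% interval from limma, not adjusted for the number of genes. Filled red points passed as higher, filled blue points passed as lower, open points did not pass, and an asterisk marks a dim member. Mmp15 lies farthest from 0, at -0.94, and Timp1 farthest above 0, at 0.50.

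Samples of a group correlated at r = 0.997 to 0.998 over all probe sets, and samples of different groups at 0.994 to 0.996. The marker counts below stand beside 5.09% of all genes that rose and 9.58% that fell. All 12 cardiomyocyte markers were brighter than the dim limit, and 4 of them (Tnni3, Myl2, Myh6 and Tnnc1) fell. Their mean log2 level was 11.14 to 11.17 in control samples and 10.94 to 10.99 with hCT1. All 10 fibroblast markers were also brighter than that limit and none passed the test, with a mean level of 8.94 to 8.96 in control samples and 8.87 to 8.95 with hCT1. Of the 9 endothelial markers Kdr rose and Emcn fell, and the mean level was 6.97 to 7.12 in control samples and 7.17 to 7.18 with hCT1. Kdr differed by 1.18, and without it the mean level of the other 8 was 7.16 to 7.33 in control samples and 7.24 to 7.26 with hCT1. Of the 6 genes listed as smooth muscle markers Des rose and Myh11 and Tagln fell. Des is also a gene of heart muscle cells, so its rise does not speak for smooth muscle cells alone. The mean level of the 6, Des included, was 9.95 to 9.99 in control samples and 9.88 to 9.94 with hCT1. Macrophage markers were dim in 9 of 10 cases and neutrophil markers in 7 of 7, and none passed. The mean level of the macrophage markers was 4.60 to 4.69 and 4.62 to 4.69, and that of the neutrophil markers 3.73 to 3.82 and 3.82 to 3.91. The part of these cell types in the members' values was not tested, and in bulk samples fewer cells of a type and less RNA per cell cannot be told apart.

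The 3 bright TIMPs did not move together. Timp1 and Timp3 rose, whereas Timp2 fell.

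Timp1 (probe set 10936482) encodes a secreted inhibitor of most soluble MMPs that is known as a target of gp130 cytokines. Its log2 value was 10.85, 10.89 and 10.88 in control samples and 11.38, 11.34 and 11.40 with hCT1. The hCT1 samples were all higher than the control samples, with little spread in either group. Timp1 rose by 0.50 ± 0.05 (SE, n = 3 per group), or 1.42-fold, with an adjusted p of 0.000404 in limma, and it passed in all 15 alternative analyses.

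Timp3 (probe set 10901231) encodes the TIMP that binds to the matrix and also blocks Adam17 and several ADAMTS proteases. Control samples had log2 values of 9.73, 9.73 and 9.77, and hCT1 samples of 10.10, 10.17 and 10.07. The groups were again fully apart. Timp3 rose by 0.37 ± 0.06 (SE), or 1.29-fold, with an adjusted p of 0.00268 in limma, and it also passed in all 15 alternatives.

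Timp2 (probe set 10749484) encodes an inhibitor that also helps membrane-bound Mmp14 to activate proMmp2. Log2 values were 10.41, 10.37 and 10.31 in control samples and 10.06, 10.11 and 10.25 with hCT1. The groups did not overlap, but hCT1 replicate 3 lay close to control replicate 3. The difference was -0.22 ± 0.07 (SE), or 1.17-fold lower, with an adjusted p of 0.0494 in limma. The call was lost in 10 of 15 alternatives, among them without control replicate 1 or 2 and without hCT1 replicate 1 or 2 (adjusted p = 0.146, 0.132, 0.157 and 0.131).

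Timp4 (probe set 10864732), known as the TIMP of heart and brain, was dim in these neonatal cells. In control samples the log2 value was 4.13, 4.08 and 4.13, and with hCT1 it was 4.290, 4.099 and 4.001. The groups overlapped, and the difference was 0.01 with a 95% interval from -0.16 to 0.18. It was -0.04 after another round of quantile normalization, -0.0038 without control replicate 2 and -0.07 without hCT1 replicate 1, so its sign was not settled.

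Promoters of Timp1, Timp3 and Mmp15 are shown so that their start regions can be set side by side. Adam9, which rose by 0.38 against 0.37 for Timp3, is not among them. RefSeq sequences (rat assembly GRCr8) of the 250 bases before the gene start were given for 37 of the 57 members and for 8 of the 12 that passed; Mmp16, Mmp17, Adam9 and Adamts19 had no entry. Each is written 5′ to 3′ on the strand of its gene, with capitals for GC boxes (GGGCGG on either strand), the short motif bound by Sp1-type factors.
Timp1 (chrX:3771123-3771372, minus strand): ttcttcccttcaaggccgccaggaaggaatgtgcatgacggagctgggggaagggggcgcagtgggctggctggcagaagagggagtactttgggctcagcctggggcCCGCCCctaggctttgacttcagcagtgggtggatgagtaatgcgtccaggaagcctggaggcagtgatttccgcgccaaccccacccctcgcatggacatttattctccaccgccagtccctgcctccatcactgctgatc
Timp3 (chr7:19459559-19459808, minus strand): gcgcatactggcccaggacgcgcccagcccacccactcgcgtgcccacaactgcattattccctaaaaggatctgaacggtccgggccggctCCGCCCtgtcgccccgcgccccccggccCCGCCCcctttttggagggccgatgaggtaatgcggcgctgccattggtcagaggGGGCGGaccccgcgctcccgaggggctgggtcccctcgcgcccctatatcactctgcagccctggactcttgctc
Mmp15 (chr19:9691001-9691250, minus strand): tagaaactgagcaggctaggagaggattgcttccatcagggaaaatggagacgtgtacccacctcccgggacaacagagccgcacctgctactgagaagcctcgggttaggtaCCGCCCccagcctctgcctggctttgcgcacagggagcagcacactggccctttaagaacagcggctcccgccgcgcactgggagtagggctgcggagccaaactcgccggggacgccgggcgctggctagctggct
A GC box was found in 7 of the 8 promoters of members that passed, all but Adamts12, and in 17 of all 37, against 30.5% of 33469 rat promoters. These 17 all lay among the 28 member promoters outside a run of 9 dim MMP genes described below. Whether promoters of members that passed differ from the others was not tested. Timp3 carried 3 GC boxes, while Timp1 and Mmp15 carried 1 each. The STAT motif (TTCNNNGAA on either strand) lay in 7.67% of all promoters, in 4 of the 37 member promoters and in none of the 8. The share of G and C exceeded the median of all promoters, 51.2%, in 22 of the 37 member promoters and was below it in 14. A match is a stretch of letters and not a measured binding site, and a missing match speaks only of these letters in this window.

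**Figure D2:**
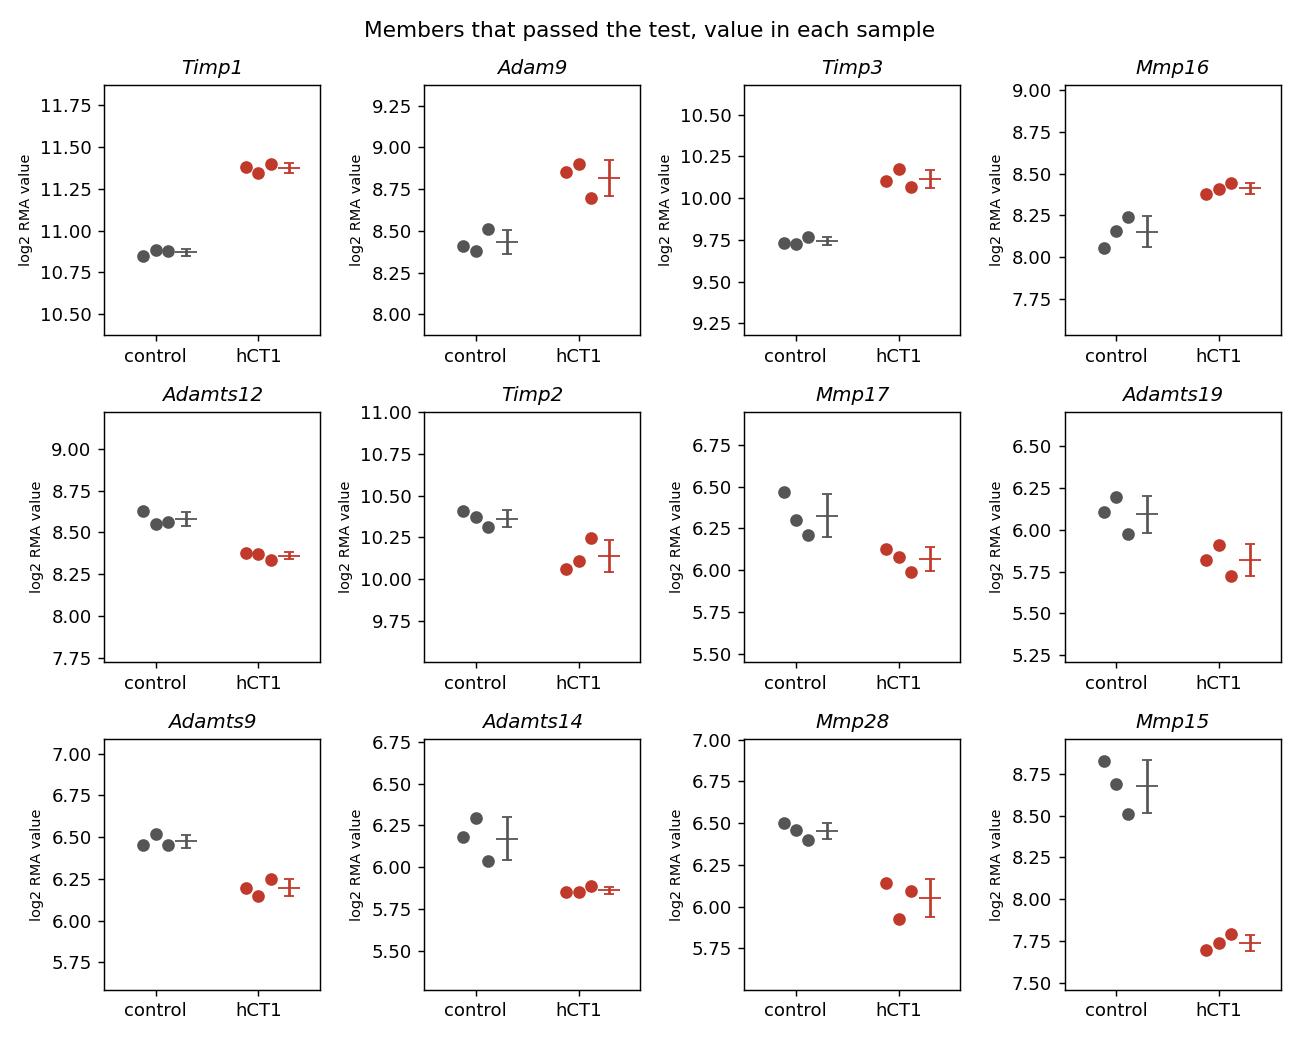
Log2 RMA value (vertical axis, 1 panel per gene, each spanning the same range) of the 12 members that passed, with 1 point per sample in the order of replicate number, grey for control and red for hCT1; the bar beside each group is its mean ± SD (n = 3). In every panel the groups are fully apart, as with Timp1 at 10.85 to 10.89 in control samples and 11.34 to 11.40 with hCT1.

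Membrane-type MMPs, which are anchored to the cell surface, numbered 5. Mmp15 and Mmp17 fell, Mmp16 rose, and Mmp14 and Mmp24 did not pass.

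Mmp15 (probe set 10809136) encodes a membrane-spanning protease that can activate proMmp2, as Mmp14 does. Mmp15 stood at 8.83, 8.69 and 8.51 on the log2 scale in control samples and at 7.69, 7.74 and 7.79 with hCT1. The lowest control sample lay well above the highest hCT1 sample. Mmp15 fell by 0.94 ± 0.08 on the log2 scale (SE), or 1.91-fold, with an adjusted p of 0.000126 in limma. It had the largest difference of all 57 members and passed in all 15 alternatives.

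Mmp17 (probe set 10761435) is tied to the membrane by a lipid anchor in place of a membrane-spanning stretch. Its log2 value was 6.47, 6.30 and 6.21 in control samples and 6.13, 6.08 and 5.99 with hCT1. The groups were apart by a narrow gap between control replicate 3 and hCT1 replicate 1. The difference was -0.26 ± 0.08 (SE), or 1.20-fold lower, with an adjusted p of 0.0489 in limma. The call was lost in 10 of 15 alternatives, among them without control replicate 1 or 2 and without hCT1 replicate 1, 2 or 3 (adjusted p = 0.146, 0.104, 0.0744, 0.104 and 0.141).

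Mmp16 (probe set 10867761) moved the other way. Control samples had log2 values of 8.06, 8.16 and 8.24, and hCT1 samples of 8.38, 8.41 and 8.45. Every hCT1 sample was above the highest control sample. The difference was 0.26 ± 0.06 (SE), or 1.20-fold higher, with an adjusted p of 0.0250 in limma. It failed in 8 of 15 alternatives, among them without control replicate 1 or 2 (adjusted p = 0.0844 and 0.0741) and without hCT1 replicate 1, 2 or 3 (adjusted p = 0.0570, 0.0686 and 0.0779).

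Mmp14 (probe set 10780205) encodes the main cell-surface activator of proMmp2. Log2 values were 9.09, 9.07 and 8.96 in control samples and 8.84, 8.85 and 8.98 with hCT1. The groups overlapped through hCT1 replicate 3. The difference was -0.15 (95% interval -0.30 to -0.0036), and the adjusted p was 0.157. Mmp24, a membrane-type MMP best known from the nervous system, was dim and differed by 0.08 (95% interval -0.05 to 0.20).

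Neither gelatinase passed the test. Gelatinases degrade denatured collagen and the collagen of basement membranes. Mmp2 (probe set 10809540) had log2 values of 10.65, 10.61 and 10.68 in control samples and 10.58, 10.54 and 10.68 with hCT1. hCT1 replicates 1 and 2 lay below every control sample and hCT1 replicate 3 reached the highest one, so the groups overlapped through that sample. The difference was -0.05 (95% interval -0.18 to 0.08), and its sign turned when each array was centred on its median. Mmp9 (probe set 10842239) was dim, at 5.64, 5.45 and 5.32 in control samples and 5.35, 5.08 and 5.06 with hCT1. The groups overlapped, as hCT1 replicate 1 lay above the lowest control sample. The difference was -0.31 (95% interval -0.54 to -0.08) with an adjusted p of 0.0716. Mmp9 passed in 4 alternatives, which were another round of quantile normalization (adjusted p = 0.0494), the replicate number as a block (0.0258), and leaving out control replicate 3 (0.0426) or hCT1 replicate 1 (0.0348).

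Mmp28 (probe set 10745637) encodes epilysin, a secreted MMP of epithelia and other tissues. In control samples the log2 value was 6.50, 6.46 and 6.40, and with hCT1 it was 6.14, 5.92 and 6.09. All hCT1 samples were below all control samples. Mmp28 fell by 0.40 ± 0.07 on the log2 scale (SE), or 1.32-fold, with an adjusted p of 0.00565 in limma. It passed with each sample left out in turn, and the one-way test named in the methods, run on the same values, gave an adjusted p of 0.0590. Of the other 6 MMPs outside the main classes none passed. Mmp12, the elastase of macrophages, differed by -0.27 (95% interval -0.57 to 0.02), and Mmp20, an enamel protease, by 0.20 (95% interval 0.01 to 0.39). The remaining 4, Mmp19, Mmp21, Mmp23 and Mmp27, lay between -0.17 and 0.14.

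The secreted collagenases, stromelysins and matrilysin are the MMPs best known for strong induction in inflamed tissue. None of the 3 collagenases or of the 4 others (Mmp3, Mmp7, Mmp10 and Mmp11) passed, and 6 of these 7 were dim, all but Mmp11. Among the collagenases, which open the triple helix of fibrillar collagen, Mmp8 differed by 0.17 (95% interval 0.01 to 0.34) and Mmp13 by -0.06 (95% interval -0.22 to 0.10). Mmp10 differed by 0.18 (95% interval -0.05 to 0.40) and Mmp3 by 0.16 (95% interval -0.04 to 0.37). Both are stromelysins, which cut many matrix proteins and can open other proMMPs.

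According to RefSeq, 9 members follow each other on rat chromosome 8, namely Mmp13, Mmp12, Mmp3, Mmp1, Mmp10, Mmp8, Mmp27, Mmp20 and Mmp7. Between them RefSeq lists 1 further protein-coding gene with an MMP symbol and none of another family. All 9 were dim and none passed, with 7 differences above 0, 2 below and a median of 0.14. Dim genes in general leaned upward. The median difference of all genes was 0.045 up to the 20th percentile of signal and 0.040 from there to the 40th. A difference from other dim genes was not tested for these 9. Their promoters are described here with no test. The AP-1 motif was taken as TGANTCA on either strand, which includes TGAGTCA and TGACTCA, the usual sites of Fos and Jun factors. It lay in 7 of these 9 promoters and in 0 of the 28 other member promoters with a sequence, against 6.34% of all promoters. A TATA motif (TATAAA on either strand) lay in 8 of the 9 and in 5 of the 28, against 12.9% of all, whereas a GC box lay in 0 of the 9 and in 17 of the 28. The share of G and C was 36.0% to 48.0% in the 9 and had a median of 65.6% in the 28. The 7 AP-1 matches nearest to the start are shown with 12 bases on each side, since they lie at similar places, with capitals for the motif (RefSeq, GRCr8).
Mmp13 (chr8:12782751-12782781, plus strand): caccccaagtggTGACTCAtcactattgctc
Mmp12 (chr8:12866553-12866583, plus strand): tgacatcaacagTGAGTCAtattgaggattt
Mmp3 (chr8:12925198-12925228, plus strand): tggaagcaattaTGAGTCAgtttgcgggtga
Mmp1 (chr8:12943357-12943387, plus strand): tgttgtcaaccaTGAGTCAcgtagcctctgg
Mmp10 (chr8:12974634-12974664, plus strand): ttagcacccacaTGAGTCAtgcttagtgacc
Mmp20 (chr8:13074171-13074201, plus strand): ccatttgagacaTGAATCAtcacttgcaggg
Mmp7 (chr8:13132951-13132981, plus strand): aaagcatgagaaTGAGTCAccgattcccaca
The motif began 61 to 96 bases before the gene start in these 7 genes, and Mmp1 had 2 matches. The Mmp20 match reads TGAATCA, which is neither TGAGTCA nor TGACTCA.

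Adam9 was the ADAM that passed. It was 1 of a group of 4 ADAMs with a catalytic site, along with Adam15, Adam17 and Adam28. Adam9 (probe set 10788899) encodes a membrane protease that sheds growth factors and other surface proteins. Adam9 stood at 8.41, 8.38 and 8.51 on the log2 scale in control samples and at 8.85, 8.90 and 8.70 with hCT1. All hCT1 samples lay above all control samples. Adam9 rose by 0.38 ± 0.07 (SE), or 1.31-fold, with an adjusted p of 0.00743 in limma. It passed with each sample left out in turn, and the one-way test run on these values gave an adjusted p of 0.0668.

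Adam17 (probe set 10889339) encodes the main shedding enzyme of tumour necrosis factor and of ligands of the epidermal growth factor receptor. Its log2 value was 8.36, 8.35 and 8.49 in control samples and 8.58, 8.63 and 8.54 with hCT1. The groups did not overlap. The difference was 0.18 (95% interval 0.04 to 0.32), and the adjusted p of 0.0768 missed the threshold. Adam17 passed in 5 of 15 alternatives, among them without control replicate 3 (adjusted p = 0.0357). Adam15 differed by -0.05 (95% interval -0.18 to 0.08) and the dim Adam28 by 0.06 (95% interval -0.08 to 0.20).

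The other 14 ADAMs are genes of other tissues, and 13 of them were dim. Adam11 and Adam23, adhesion proteins of the nervous system without a working catalytic site, differed by 0.06 and -0.04. The 12 ADAMs known mainly from testis and epididymis lay between -0.14 (Adam4) and 0.11 (Adam3a), and none passed. Adam1a, the one that was not dim, differed by 0.07 (95% interval -0.07 to 0.22).

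Of the 11 ADAMTS proteases 4 fell and none rose, and 9 of the 11 differences were below 0. Of all genes 9.58% fell, and 18.2% did so between the 40th and 60th percentiles of signal, where Adamts9, Adamts14 and Adamts19 lay. The median difference of the 11 ADAMTS proteases was -0.17 on the log2 scale. After another round of quantile normalization 3 passed as lower and 9 of 11 were still below 0. With each array centred on its median, 1 passed as lower, 1 as higher, and 8 of 11 were below 0.

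Adamts14 (probe set 10833047) belongs to the procollagen N-proteinases, which trim the amino end of procollagen before fibrils form. Control samples had log2 values of 6.18, 6.29 and 6.04, and hCT1 samples of 5.85, 5.85 and 5.88. The groups were apart, and the control samples spread more widely. The difference was -0.31 ± 0.07 (SE), or 1.24-fold lower, with an adjusted p of 0.0196 in limma. It was lost in 6 of 15 alternatives, among them without control replicate 1 or 2 (adjusted p = 0.0609 and 0.0700) and without hCT1 replicate 1 or 2 (0.0606 and 0.0615). Adamts2, the main enzyme of this class, differed by -0.22 (95% interval -0.37 to -0.07) with an adjusted p of 0.0524, just outside the threshold. The brighter probe set of Adamts3 differed by -0.17 and its other probe set by -0.20.

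Adamts9 (probe set 10864185) is one of 5 members that cut large proteoglycans such as versican and aggrecan. Log2 values were 6.45, 6.52 and 6.45 in control samples and 6.20, 6.14 and 6.25 with hCT1. The groups were clearly apart. The difference was -0.28 ± 0.06 (SE), or 1.21-fold lower, with an adjusted p of 0.0119 in limma. It was lost in 4 of 15 alternatives, among them without control replicate 2 (adjusted p = 0.0538) and without hCT1 replicate 2 (0.0501).

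Adamts1 (probe set 10752839), a versican-cutting protease with anti-angiogenic activity, did not pass. In control samples the log2 value was 9.90, 9.78 and 9.92, and with hCT1 it was 9.78, 9.65 and 9.65. The groups did not overlap, but only just, with hCT1 replicate 1 at 9.7760 and control replicate 2 at 9.7763. The difference was -0.17 (95% interval -0.32 to -0.03) with an adjusted p of 0.110. Adamts5, the main aggrecan-cutting enzyme of mouse cartilage, differed by 0.15 (95% interval -0.02 to 0.32), Adamts15 by 0.12 and Adamts4 by -0.09. This class thus held differences of both signs.

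Adamts12 (probe set 10813694) cuts cartilage oligomeric matrix protein, as does Adamts7. Adamts12 stood at 8.63, 8.55 and 8.56 on the log2 scale in control samples and at 8.37, 8.37 and 8.34 with hCT1. Both groups were tight and did not overlap. The difference was -0.22 ± 0.05 (SE), or 1.17-fold lower, with an adjusted p of 0.0253 in limma. The call was lost in 9 of 15 alternatives, among them without control replicate 1 or 2 (adjusted p = 0.0892 and 0.0633) and without hCT1 replicate 1, 2 or 3 (0.0669, 0.0685 and 0.0773).

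Adamts19 (probe set 10801935) had log2 values of 6.11, 6.20 and 5.98 in control samples and 5.82, 5.91 and 5.72 with hCT1. The groups were apart, with hCT1 replicate 2 close to control replicate 3. The difference was -0.28 ± 0.08 (SE), or 1.21-fold lower, with an adjusted p of 0.0394 in limma. It was lost in 9 of 15 alternatives, among them without control replicate 1 or 2 (adjusted p = 0.105 and 0.135) and without hCT1 replicate 1 or 3 (0.0946 and 0.121). Adamts7 differed by -0.13 (95% interval -0.30 to 0.05). The ADAMTS-like proteins, which have no protease domain, did not pass, at -0.13 for Adamtsl5, -0.11 for Adamtsl4 and 0.11 for Adamtsl3.

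The members' differences were set against mean signal, because falls were unevenly spread over the range of signals. Between the 40th and 60th percentiles 18.2% of all genes fell and 4.80% rose, with a median difference of -0.09. In the same band 5 of 11 members fell (Mmp28, Mmp17, Adamts9, Adamts14 and Adamts19) and none rose, with a median of -0.13. Above the 80th percentile 10.1% of all genes fell and 8.35% rose, and of 7 members Timp1 and Timp3 rose and Timp2 fell. Up to the 20th percentile 2.10% of all genes rose and 0.271% fell, and none of 19 members passed. The part of this dependence on signal in the members' falls was not tested.

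**Figure D3:**
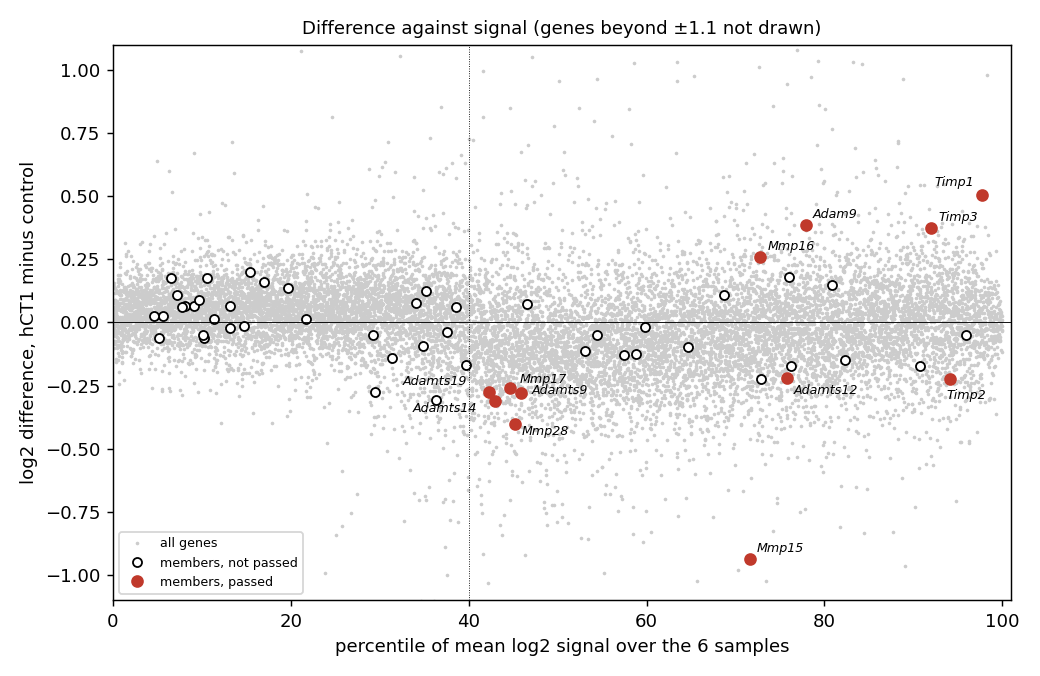
Log2 difference (hCT1 minus control, vertical axis) against the percentile of mean log2 signal (horizontal axis) for all genes (small grey points), members that passed (red, named) and members that did not (open); 54 genes beyond 1.1 in size are not drawn, and the dotted line marks the dim limit. Mmp28, Mmp17, Adamts9, Adamts14 and Adamts19 crowd just right of that line, between -0.40 and -0.26, where many grey points also lie below 0, whereas Mmp15 stands apart at -0.94.

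Genes that open, present or restrain metalloproteinases moved in both directions. Of 19 measured on a list of activators and regulators 2 rose and 3 fell, with a median of 0.00, beside 5.09% and 9.58% of all genes. Pcsk6, a proprotein convertase of the furin family that opens latent proenzymes, was at 8.42, 8.32 and 8.36 in control samples and 9.11, 9.01 and 9.09 with hCT1. The groups lay far apart, and Pcsk6 rose 1.63-fold (difference 0.70 ± 0.06 SE, adjusted p = 9.38e-05 in limma). Pacsin3, an endocytic adaptor, fell by 0.43 and Serpine2, an inhibitor of plasminogen activators, by 0.40 on the log2 scale. Tspan17 and Tspan33, which belong to the tetraspanins that escort Adam10, went opposite ways, at -0.30 and 0.25, and Tspan33 was dim. Furin itself differed by 0.07 (adjusted p = 0.642), and Reck, a membrane-bound MMP inhibitor, had an adjusted p of 0.981. Only 1 gene of this list passed as higher without control replicate 1 or 3 or without hCT1 replicate 1, 2 or 3, and only 1 passed as lower without hCT1 replicate 1 or 2.

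Among 24 measured membrane proteins known to be shed by ADAM10 or ADAM17 2 rose and 2 fell, and the median difference was 0.03, again beside 5.09% and 9.58% of all genes. The chemokine Cx3cl1 rose by 0.39 and the tumour necrosis factor receptor Tnfrsf1a by 0.36, whereas the Notch ligand Jag1 fell by 0.38 and neuregulin 1 (Nrg1), a growth factor for heart muscle, by 0.28 on the log2 scale. Among 18 measured matrix substrates 1 rose and 2 fell, with a median of -0.10. The shares of all genes to read these counts against are the same, and whether the lists differ from them was not tested. Ltbp1, which holds latent transforming growth factor beta in the matrix, rose by 0.33, while fibrillin 2 (Fbn2) fell by 0.42 and the basement membrane protein nidogen 2 (Nid2) by 0.41. Transcript levels do not show enzyme activity, shedding or matrix breakdown, which the arrays did not measure.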

How the data were processed

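Values of 6 arrays were used as deposited: log2 signals that the authors made with RMA, a method that corrects background, brings arrays to a common distribution and joins probes into 1 value per probe set. Affymetrix Expression Console and RMA are named, with no versions, in the processing notes of the submitters, and a genome build is not given in the sources used here. Of 29215 probe sets, 15310 had exactly 1 symbol in the platform annotation, 323 had several and 13582 had none there. All 57 members matched RefSeq by gene identifier. Groups came from the sample labels and the dose from the methods.

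The groups were compared with limma 3.58.1 in R 4.3.3 (lmFit, eBayes without trend, 2-sided, statmod 1.5.0 for the robust fit), adjusted over the 15310 probe sets, with no filter on low signals. The fit was tested on simulated data. On the log2 scale it recovered 10 of 67 changes of 0.25, 50 of 67 of 0.5 and 66 of 66 of 1. Of its 130 calls 4 were false. Changes near 0.25 were thus mostly missed there. The members and gene lists were chosen with earlier results of these data known. Values in every sample are given for members that passed, the TIMPs and Mmp2, Mmp9, Mmp14, Adam17 and Adamts1. The other members are given by the 2 largest differences of each role and by ranges, and listed pathway genes by up to 4 that passed. Furin, Reck and Tspan33, which was the fifth of its list to pass, were named after their values were seen, as were some further members. The 15 alternatives were other tests, normalizations, filters and thresholds, the replicate number as a block, averaged probe sets, and each sample left out. The number of arrays limits the precision.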

Additional observations from a re-analysis of the deposited data

How the results depend on the processing

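Timp1, Timp3 and Mmp15 passed in the same direction under all 15 alternatives, and Mmp28 and Adam9 under all but the one-way test of the methods. The other 7 members that passed lost the call under 4 (Adamts9) to 10 (Timp2 and Mmp17) of them. Of the members, 8 were lower in the main comparison, 4 with the one-way test, 4 over all probe sets, 3 with each array centred on its median and 2 at an adjusted p under 0.01. Of all genes, 1390, 609, 835, 713 and 517 were lower in these settings, in that order. With 1 sample left out the members' count lay between 2 and 11, and that of all genes between 744 and 1696. The 4 higher members became 10 with centring, and 3 to 7 with 1 sample left out. For all genes 739 higher became 2230 with centring, and 405 to 846 with 1 sample left out. The members' median of -0.02 became -0.13 with the filter at the 40th percentile of signal, which left 27 members. With centring it became 0.073. The median of all genes also moved, to -0.046 with the filter, which left 8586 genes, and to 0.094 with centring. The members' median lay between -0.0373 and 0.00591 with 1 sample left out. Signs turned for Timp4 with another quantile normalization (-0.0427) and with 1 sample left out (-0.0669 to 0.0777), and for Mmp2 with centring (0.0463). Of activators and regulators, the 2 higher became 1 with the one-way test, over all probe sets, with the filter, at 0.01 and with the replicate block, 6 with centring, and 1 to 2 with 1 sample left out. The 3 lower became 5 with trend and robust variances and with the filter, 1 with the one-way test, over all probe sets and at 0.01, and 1 to 4 with 1 sample left out. Of the shed proteins, the 2 higher became 6 with centring and the 2 lower became 1 with centring and at 0.01. Of the matrix substrates, the 1 higher became 2 with the one-way test and 3 with centring, and the 2 lower became 4 with trend and robust variances and 5 with the filter. The cause of these shifts was not tested. Same-numbered samples did not deviate together (correlations -0.0253, 0.0459 and -0.285), so the numbers were not taken as pairs. With the replicate number as a block 4 members were higher and 7 lower, 6 of the 7 shared with the main comparison, and all genes gave 477 higher and 943 lower calls. Dim probe sets and 3 samples per group limit what small differences can show.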
